A study of Mus musculus with 7 samples.

Results

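Synaptic vesicle and exocytosis genes were followed in the mouse line MN9D, a fusion of neuroblastoma cells with neurons of the embryonic midbrain that makes dopamine. A gene belonged here if a probe set carried its symbol alone and the symbol was that of a synaptotagmin (Syt), syntaxin (Stx), syntaxin-binding protein (Stxbp), VAMP, Sv2 protein, complexin (Cplx), Rims or Unc13 protein, or was Syp, Syn1, Syn2, Syn3, Snap23, Snap25, Snap29, Snap91, Napa, Napb, Nsf, Cadps or Bsn. The rule used names only and no measured value. It found 58 genes among the 12393 with such a probe set, on 111 of the 22626 probe sets tested, and each gene was represented by its brightest probe set, averaged across the 7 arrays. Of the 7 arrays, 3 came from MN9D cells carrying an empty vector and 4 from MN9D cells labelled as overexpressing the alpha and beta chains of mouse hemoglobin, and the deposited log2 RMA values of Affymetrix 430A 2.0 arrays were compared. The question given for the series is what globin expression does to the cells. The vector's promoter, the time after its introduction and whether either line was 1 clone are not stated in the labels, nor whether replicates were separate cultures. The spread behind each p-value is that between these arrays and may be technical.

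Neurotransmitter and hormone release runs on SNARE proteins. A vesicle SNARE of the VAMP family zips together with a syntaxin and a protein of the SNAP-25 type on the target membrane, and the membranes fuse. Sec1/Munc18 proteins such as those of Stxbp2 and Stxbp3 guide the assembly. Many synaptotagmins sense calcium, complexins hold the assembled SNAREs ready, and the ATPase NSF with its SNAP adaptors takes spent complexes apart. Synapsins tether vesicles to the cytoskeleton, while other syntaxins and VAMPs serve the Golgi, endosomes and lysosomes of every cell.

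The label was checked first. Signal rose by 5.16 to 7.15 on the log2 scale on the 3 probe sets that the alpha genes Hba-a1 and Hba-a2 share, and did not pass on those of either gene alone. The probe set common to the beta genes differed by 0.12 ± 0.06 (limma adjusted p = 0.149), and 1 of 2 specific to Hbb-b2 rose by 0.34 ± 0.07 (limma adjusted p = 0.00558). The alpha part of the label was thus seen on the arrays and a rise of beta-globin of like size was not, so the 4 arrays are called globin-labelled wherever a direction is given. Of 6 dopaminergic markers 1 rose and 2 fell. Of all 12393 genes 20.6% rose and 20.1% fell at a limma adjusted p under 0.05, the background for every marker count here. Th, which encodes the enzyme that limits the making of dopamine, had means of 11.78 and 11.08, Ddc fell by 0.22 and the receptor gene Ret rose by 1.64, while the dopamine transporter gene Slc6a3 lay below the arrays' 25th percentile. Of 8 neuronal markers 1 rose and 2 fell, and 2 (Nefl and Nefm) lay below that percentile. The mean level of the 8 was 10.07 to 10.15 in the empty vector arrays against 9.86 to 9.90 in the globin-labelled ones. Stmn2 fell 2.29-fold and Tubb3 1.74-fold, while Elavl4 rose by 0.18. Elavl3, Gap43, Uchl1, Nefl and Nefm did not pass, so the lower neuronal mean rests largely on Stmn2 and Tubb3. Astrocyte markers lay below the arrays' 25th percentile for 4 of 6 genes and 0 of the 6 passed. Of 5 oligodendrocyte markers 1 fell, of 6 microglial markers 1 rose and 1 fell, and of 6 fibroblast markers 1 rose, and 2, 3 and 4 of them lay below that percentile. Among the microglial markers Cd68 fell by 1.25 and Tyrobp rose by 0.19, and among the fibroblast markers Pdgfrb rose by 0.96. No other marker of either list passed, so the list means rest largely on Cd68 and on Pdgfrb. The mean level of the microglial list was 6.23 to 6.31 in the empty vector arrays and 6.06 to 6.17 in the globin-labelled arrays. That of the fibroblast list was 6.79 to 6.82 in the controls and at least 6.94 in the globin-labelled arrays. The part of these lists in the results was not tested. In bulk RNA, fewer cells of a type and less RNA per cell cannot be told apart.

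Genes of the release machinery changed in both directions in the globin-labelled arrays. The neuronal vesicle SNARE gene Vamp1 and the synaptotagmin gene Syt17 showed the largest rises among the members, 2.00-fold and 1.64-fold. On the log2 scale Syt17 rose by 0.71 ± 0.05 (limma standard error, n = 4 and 3 arrays, as for every ± below). The synapsin gene Syn1, the general SNARE gene Snap23 and the synaptotagmin gene Syt11 showed the largest falls, by 0.92 ± 0.04, 0.73 ± 0.05 and 0.57 ± 0.04. At a limma adjusted p under 0.05, 12 of the 58 genes rose and 14 fell, together 44.8% of the members where 40.7% of all 12393 genes were called. The rises made up 20.7% of the members against 20.6% of all genes, and the falls 24.1% against 20.1%. The count as such was therefore near the background of this comparison. The median difference was 0.05 over the members and 0.02 over all genes, and the median size regardless of sign was 0.12 over both. A fold of at least 1.5 was passed by 4 members (6.90%, against 5.28% of all genes), namely Vamp1, Syt17, Syn1 and Snap23. The 2 groups of arrays did not overlap for 29 members (50%, against 45.7% of all genes), among them the 26 called ones. When each array was left out in turn, 21 of the 26 calls held every time. Empty vector array 1 and globin-labelled array 4 lay together at the same end of the second principal component. With both left out, an alternative added after seeing the data, 21 members were called (10 higher, 11 lower). That fit called 7375 of all probe sets, where the main fit called 8931.

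**Figure D1:**
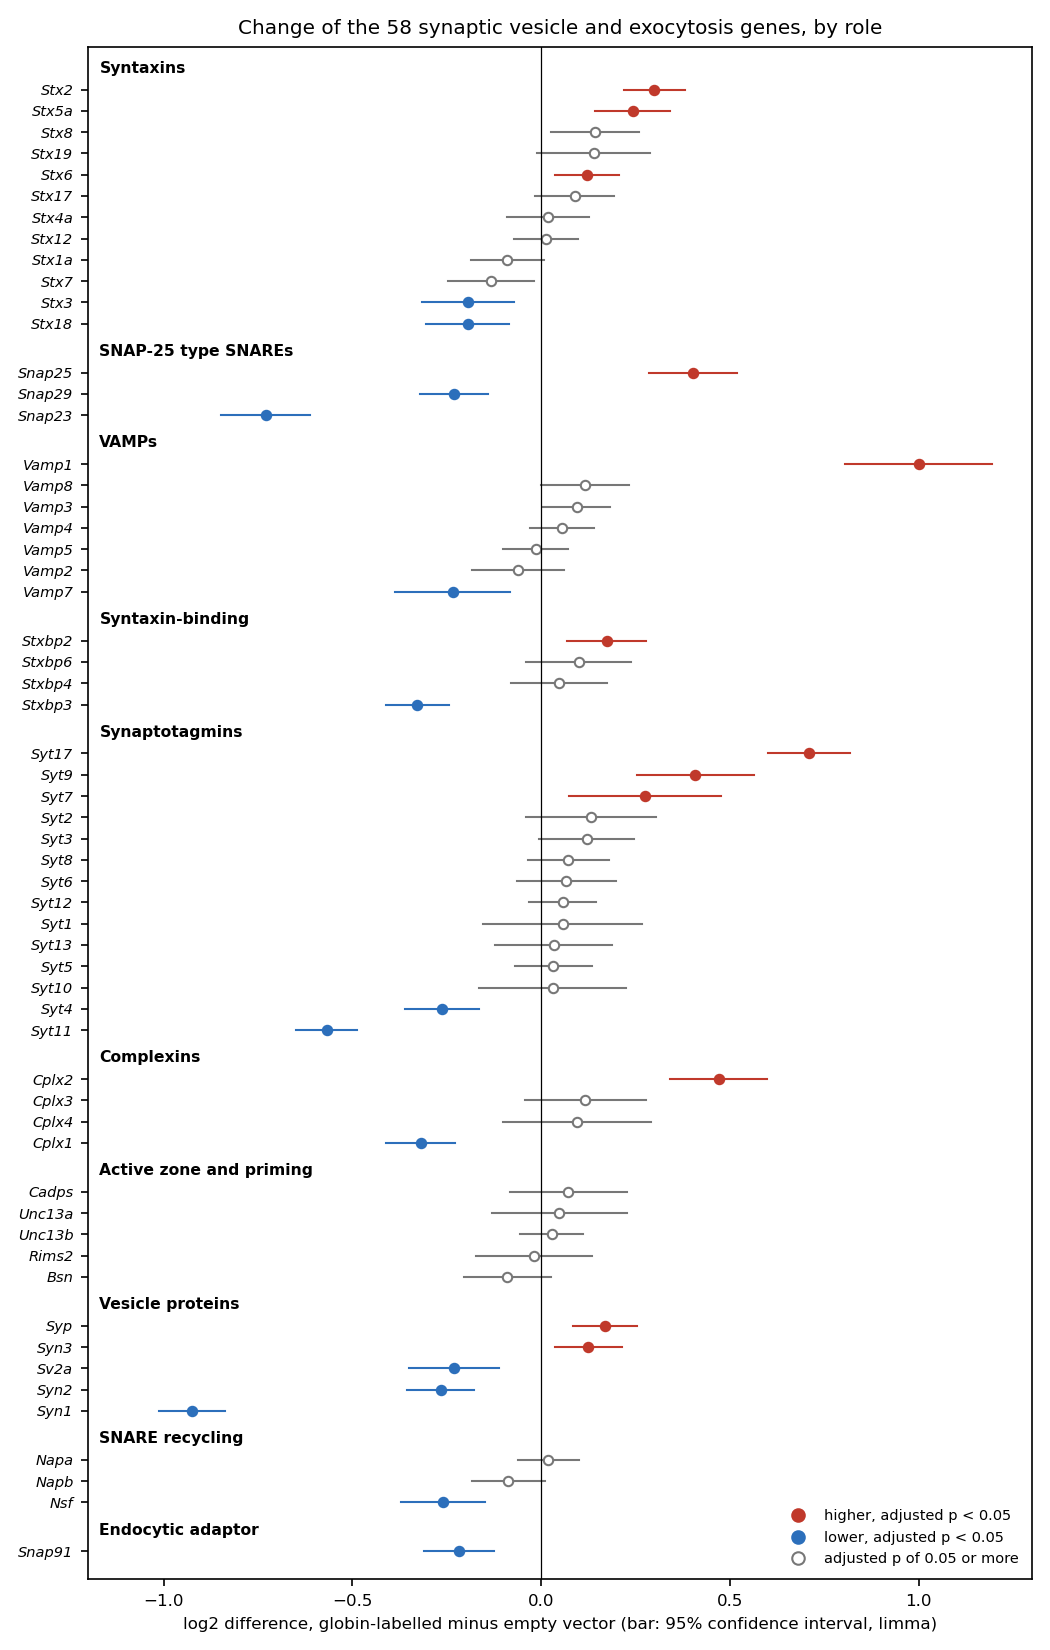
Log2 difference, globin-labelled minus empty vector, of each of the 58 members, grouped by role, with the 95% confidence interval from limma as a bar. Filled points passed an adjusted p of 0.05 (12 higher in red, 14 lower in blue), and within the syntaxins, SNAP-25 type SNAREs, VAMPs, syntaxin-binding proteins, synaptotagmins, complexins and vesicle proteins both colours appear.

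Among the vesicle SNAREs, 1 of 7 VAMP genes rose and 1 fell, together 28.6% where 40.7% of all genes were called. Vamp1, whose product drives transmitter release at motor and other fast synapses, read 8.66, 8.66 and 9.03 in the empty vector arrays and 9.73, 9.82, 9.84 and 9.74 in the globin-labelled arrays. All 4 globin-labelled arrays lay above all 3 controls, although empty vector array 3 stood above the other controls. The rise was 2.00-fold, with a standard error of 0.09 on the log2 scale (limma adjusted p = 2.47e-05). Its other probe set rose by 0.75 ± 0.09, and a probe set annotated to both E130112N10Rik and Vamp1, which the rule leaves out, rose by 0.77 ± 0.07. Vamp2, the main vesicle SNARE of forebrain synapses, read 10.85, 11.01 and 10.90 against 10.93, 10.89, 10.85 and 10.77. These values overlapped, with a difference of -0.06 ± 0.05 and a 95% confidence interval from -0.18 to 0.06. Vamp7, a SNARE of lysosomes and of neurite outgrowth, fell by 0.23 ± 0.07 (limma adjusted p = 0.0214), from 11.38, 11.13 and 11.24 to 10.92, 11.02, 11.13 and 10.99. Its groups were separated by almost nothing, and the call was lost without empty vector array 1 (-0.17, limma adjusted p = 0.0784), without empty vector array 3 (adjusted p = 0.0539) and without globin-labelled array 1 (adjusted p = 0.0549) or 4 (adjusted p = 0.0522), whereas its other probe set fell by 0.44 ± 0.08. Vamp3, Vamp4, Vamp5 and Vamp8, which serve endosomes, the Golgi and regulated secretion outside neurons, differed by -0.01 to 0.12 and did not pass, though with empty vector array 3 left out Vamp8 did (0.16, limma adjusted p = 0.0440).

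The promoter of Vamp1 is shown because the gene had the largest rise, and that of Syn1 further on because it had the largest fall. RefSeq windows of GRCm38.p6, from 250 bases before to 50 after the start site, were matched by symbol for 45 of the 58 genes (56 windows). Each was searched on both strands for CAGCACC and GGACAG, the left and right parts of the RE1 element bound by the neuronal gene repressor REST, for TGACGTC, the core of the cAMP response element, and for the E-box CAGCTG. Capitals mark these letters, and the Vamp1 window holds none of them.
Vamp1 (chr6:125215331-125215630, plus strand): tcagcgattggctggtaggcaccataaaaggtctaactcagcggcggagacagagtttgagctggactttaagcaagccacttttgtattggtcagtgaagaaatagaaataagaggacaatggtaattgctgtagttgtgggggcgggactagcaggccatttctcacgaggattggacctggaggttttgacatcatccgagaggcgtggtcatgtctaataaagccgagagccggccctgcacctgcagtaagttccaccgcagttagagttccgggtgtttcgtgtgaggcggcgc

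The 3 genes of the SNAP-25 type that the rule takes in all changed, 1 higher and 2 lower, where 40.7% of all genes were called. Snap47, a further relative outside the rule, did not pass (-0.09 ± 0.06, limma adjusted p = 0.265). Snap25, the partner of the synaptic SNAREs in neurons, rose by 0.40 ± 0.05 (1.32-fold, limma adjusted p = 2.54e-04), from 11.96, 12.05 and 12.12 in the empty vector arrays to 12.46, 12.48, 12.47 and 12.37. Every globin-labelled array was above every control. Snap23, its counterpart in most other cells, fell 1.66-fold (limma adjusted p = 8.14e-06), from 10.11, 10.02 and 10.17 to 9.33, 9.46, 9.36 and 9.33. The fall was seen on each of its 3 probe sets, which gave -0.73, -0.82 and -0.70. Set against Snap23 on the same array, Snap25 thus shifted by 1.13. The Snap25 minus Snap23 difference had an SD of 0.10 among the 3 controls and 0.06 among the 4 globin-labelled arrays. This shift restates the 2 opposite calls and is no added support for them. Snap29, which acts in endosome and autophagosome fusion, fell by 0.23 ± 0.04 (limma adjusted p = 0.00153) from 8.96, 8.95 and 8.94 to 8.71, 8.79, 8.72 and 8.68. Of its other probe sets 1 fell, by 0.35 ± 0.09, and 1 did not pass (-0.10 ± 0.06).

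Of 12 syntaxin genes 3 rose and 2 fell, together 41.7% where 40.7% of all genes were called. Among those of the plasma membrane, Stx1a, the syntaxin of the synapse, did not pass, at 11.64, 11.64 and 11.57 against 11.47, 11.52, 11.58 and 11.54 (-0.09 ± 0.04, 95% confidence interval -0.19 to 0.01, limma adjusted p = 0.130). The groups overlapped slightly, and its other probe set gave -0.08. Stx2, a plasma membrane syntaxin found in many tissues, rose by 0.30 ± 0.04 (limma adjusted p = 1.65e-04), from 9.76, 9.78 and 9.74 to 10.06, 10.05, 10.07 and 10.06. The arrays of each group lay within a few hundredths of each other. Stx3, known from apical membranes and ribbon synapses, fell by 0.19 ± 0.05 (limma adjusted p = 0.0174), a call lost without empty vector array 1 (adjusted p = 0.0605) or 2 (adjusted p = 0.0536). Stx4a and Stx19, with 0.02 and 0.14, did not pass.

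The remaining syntaxins work inside the cell. Stx5a, which serves transport from the endoplasmic reticulum to the Golgi, rose by 0.24 ± 0.04 (limma adjusted p = 0.00201), from 10.87, 10.94 and 10.85 to 11.08, 11.19, 11.16 and 11.10, and its other probe set also rose, by 0.21. Stx18, an endoplasmic reticulum syntaxin, fell by 0.19 ± 0.05 (limma adjusted p = 0.0105), as did 3 of its 4 other probe sets. Stx6, of the trans-Golgi network, rose by 0.12 ± 0.04 (limma adjusted p = 0.0279) on 1 of 4 probe sets only. That call was lost without empty vector array 2 or 3 or without globin-labelled array 2, 3 or 4 (adjusted p from 0.0508 to 0.0839). The 3 probe sets of the endosomal gene Stx8 disagreed: the brightest differed by 0.14 ± 0.05 (limma adjusted p = 0.0534, and 0.0329 without globin-labelled array 2), the next rose by 0.19 ± 0.04 and the dimmest fell by 0.34 ± 0.10. Stx7 and Stx12, both endosomal, and Stx17, of autophagosomes, differed by -0.13, 0.01 and 0.09 and did not pass, but with empty vector array 2 left out Stx7 did (-0.18, limma adjusted p = 0.0199).

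Of the 4 syntaxin-binding genes 1 rose and 1 fell, where 40.7% of all genes were called. Stxbp3, the Munc18 protein of insulin-regulated and constitutive exocytosis, fell by 0.33 ± 0.04 (limma adjusted p = 1.15e-04), from 9.24, 9.20 and 9.20 to 8.88, 8.91, 8.87 and 8.89, and its other probe set fell by 0.22. Stxbp2, the Munc18 protein of secretory cells outside the nervous system, rose by 0.17 ± 0.05 (limma adjusted p = 0.0154), from 10.49, 10.54 and 10.49 to 10.75, 10.70, 10.59 and 10.67. Both genes separated the groups, but the Stxbp2 call was lost when globin-labelled array 4 and empty vector array 1 were both left out (limma adjusted p = 0.0774). Stxbp4 and Stxbp6 differed by 0.05 and 0.10 and did not pass.

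Among 14 synaptotagmin genes 3 rose and 2 fell, together 35.7% where 40.7% of all genes were called. The best-known calcium sensor of fast release was not among those called. Syt1, that sensor, read 10.51, 10.27 and 10.61 against 10.52, 10.71, 10.41 and 10.43, a difference of 0.06 ± 0.09 with a 95% confidence interval from -0.15 to 0.27. Its arrays were spread more widely within each group than those of most members. Syt17, a synaptotagmin relative that binds membranes without calcium, rose from 9.36, 9.34 and 9.51 to 10.13, 10.11, 10.11 and 10.10 (1.64-fold, limma adjusted p = 5.98e-06), and its other probe set rose by 0.57 ± 0.06. Syt11, which also does not respond to calcium and restrains vesicle traffic, fell from 12.35, 12.34 and 12.36 to 11.79, 11.75, 11.79 and 11.80 (1.48-fold, limma adjusted p = 4.19e-06). All 3 Syt11 probe sets fell, by 0.40 to 0.69. For both genes the distance between the groups was many times the spread within them.

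Syt4, a synaptotagmin of dense-core vesicles, fell by 0.26 ± 0.04 (limma adjusted p = 0.00107), from 12.10, 12.14 and 12.07 to 11.87, 11.79, 11.80 and 11.90, while its other probe set did not pass (-0.08 ± 0.05). Syt9, a fast calcium sensor in some neurons, rose by 0.41 ± 0.07 (limma adjusted p = 0.00122), from 5.64, 5.51 and 5.41 to 5.89, 5.88, 5.87 and 6.07. Its signal lay below the arrays' 25th percentile of 6.83, where 10.5% of all genes were called and 1 of 9 members was, so this is a difference of dim signal. Syt7, a slow calcium sensor of neuroendocrine exocytosis, read 6.89, 6.75 and 6.73 against 6.93, 7.30, 6.93 and 7.09 (0.28 ± 0.09, limma adjusted p = 0.0352). That call was lost without empty vector array 2 (adjusted p = 0.105), without empty vector array 3 (adjusted p = 0.114) and without globin-labelled array 4 (adjusted p = 0.0784). The other 9 synaptotagmins (Syt1, Syt2, Syt3, Syt5, Syt6, Syt8, Syt10, Syt12 and Syt13) differed by 0.03 to 0.13.

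**Figure D2:**
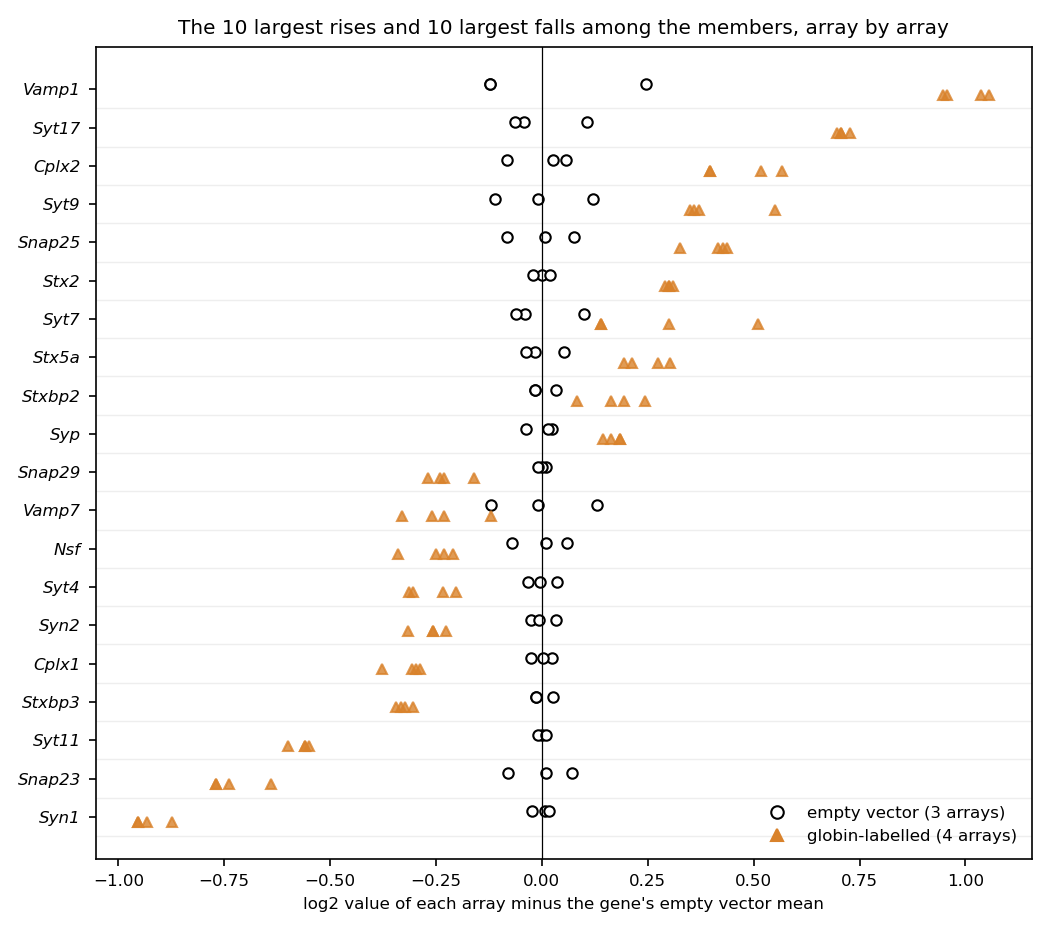
Log2 value of each array minus the gene's mean over the empty vector arrays, for the called members that rose most (10 genes) and fell most (10 genes). Circles are the 3 empty vector arrays and triangles the 4 globin-labelled arrays, and the groups are far apart for Syn1, Snap23, Syt11 and Syt17 but almost touch for Vamp7.

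The complexins divided between their neuronal members. Cplx2 rose by 0.47 ± 0.06 (1.38-fold, limma adjusted p = 1.90e-04), from 9.59, 9.56 and 9.45 to 10.05, 9.93, 10.10 and 9.93. Cplx1 fell by 0.32 ± 0.04 (1.25-fold, limma adjusted p = 2.33e-04), from 11.84, 11.82 and 11.79 to 11.44, 11.53, 11.52 and 11.51, with its 2 other probe sets falling by 0.33 and 0.37. Neither gene's groups overlapped. The Cplx2 minus Cplx1 difference shifted by 0.79 between the groups, with an SD of 0.05 among the controls and 0.11 among the globin-labelled arrays. Here too the shift only restates the 2 opposite calls. Cplx3 and Cplx4, known from retinal ribbon synapses, were dim and did not pass (0.12 and 0.09), though with empty vector array 3 left out Cplx4 did (0.21, limma adjusted p = 0.0159). The promoters of the 2 genes that moved apart are shown to set their sequences side by side, and each holds the E-box once, 82 bases before the start site in Cplx1 and 162 before it in Cplx2. The same E-box occurs in 15 of the 56 member windows (26.8%) and in 16.3% of all 32851 windows. Of the 12 genes that hold it 1 rose, 2 fell and 9 did not pass. Over all 45 genes with a window 8 rose, 12 fell and 25 did not pass, and the difference was not tested.
Cplx1 (chr5:108549978-108550277, minus strand): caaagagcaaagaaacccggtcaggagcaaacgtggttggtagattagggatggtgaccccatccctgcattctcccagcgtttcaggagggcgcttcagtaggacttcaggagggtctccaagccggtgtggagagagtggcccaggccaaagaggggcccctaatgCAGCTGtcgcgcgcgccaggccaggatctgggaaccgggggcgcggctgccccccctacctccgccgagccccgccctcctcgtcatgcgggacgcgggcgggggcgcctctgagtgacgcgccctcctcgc
Cplx2 (chr13:54302306-54302605, plus strand): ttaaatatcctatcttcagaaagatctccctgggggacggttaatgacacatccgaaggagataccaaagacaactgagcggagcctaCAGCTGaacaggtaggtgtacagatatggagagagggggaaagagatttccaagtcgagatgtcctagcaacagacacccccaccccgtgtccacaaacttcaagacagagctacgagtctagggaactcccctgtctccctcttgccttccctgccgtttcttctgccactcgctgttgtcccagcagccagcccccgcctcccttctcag

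None of the 5 genes of the active zone and of vesicle priming passed in limma, where 40.7% of all genes were called. With only 5 genes, that count is not read as a result about the group. Unc13a, the priming factor Munc13-1, read 9.26, 9.57 and 9.23 against 9.46, 9.38, 9.39 and 9.38, and differed by 0.05 ± 0.08. Empty vector array 2 stood above the other controls, and without it the difference was 0.16 and passed (limma adjusted p = 0.0281). Rims2, an active zone scaffold, and Bsn, the giant scaffold Bassoon, differed by -0.02 ± 0.07 and -0.09 ± 0.05. Unc13b and Cadps, which prime synaptic and dense-core vesicles, differed by 0.03 ± 0.04 and 0.07 ± 0.07, and Cadps lay below the arrays' 10th percentile. The lowest limma adjusted p of the 5 was 0.199, and 0 had an unadjusted p under 0.05 by limma or by the ordinary two-sample test.

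Of Syp, Sv2a and the 3 synapsin genes, grouped here as vesicle proteins other than SNAREs and synaptotagmins, 2 rose and 3 fell, where 40.7% of all genes were called. Syn1, the synapsin that tethers the reserve pool of vesicles, fell from 10.67, 10.70 and 10.71 to 9.76, 9.74, 9.74 and 9.82, a 1.90-fold difference with the smallest adjusted p of all members (limma adjusted p = 3.23e-07). No other member's groups lay as far apart, at 0.85 between the lowest control and the highest globin-labelled array. Syn2 fell by 0.27 ± 0.04 (limma adjusted p = 5.87e-04), from a mean of 11.03 to 10.77, 10.71, 10.77 and 10.80 with no overlap, and its other probe set fell by 0.39. Syn3 rose by 0.13 ± 0.04 (limma adjusted p = 0.0306), a call lost without empty vector array 2 or 3 or globin-labelled array 2 or 3 (adjusted p from 0.0618 to 0.0972). Syp, which encodes synaptophysin, an abundant protein of the vesicle membrane, rose by 0.17 ± 0.04 (limma adjusted p = 0.00616), from 11.35, 11.41 and 11.40 to 11.57, 11.55, 11.53 and 11.57, and its dimmer probe set did not pass (0.10). Sv2a, a vesicle glycoprotein, fell by 0.23 ± 0.05 (limma adjusted p = 0.00708). The 3 synapsin genes thus did not share a direction.

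The Syn1 window holds 2 copies of CAGCACC, 230 and 176 bases before the start site, and the core TGACGTC on both strands at 159 and 158 bases before it, as overlapping matches. Over all 45 genes with a window 8 rose, 12 fell and 25 did not pass. CAGCACC occurs in 6 of the 56 member windows (10.7%, against 7.14% of all windows), in genes of which 1 rose, 1 fell and 4 did not pass. TGACGTC occurs in 3 member windows (5.36%, against 3.21%), those of Syn1 and Stxbp3, which fell, and of Napa. The right part of RE1, GGACAG, occurs in 14 (25%, against 22.2%), in 11 genes of which 2 rose, 3 fell and 6 did not pass. These matches are letters in a window and were not tested as sites.
Syn1 (chrX:20920869-20921168, minus strand): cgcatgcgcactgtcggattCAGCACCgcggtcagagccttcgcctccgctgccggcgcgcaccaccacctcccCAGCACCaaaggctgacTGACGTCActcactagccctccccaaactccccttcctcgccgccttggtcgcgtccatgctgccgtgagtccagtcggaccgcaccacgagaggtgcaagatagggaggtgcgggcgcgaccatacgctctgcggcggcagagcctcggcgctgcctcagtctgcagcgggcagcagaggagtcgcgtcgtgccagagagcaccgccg

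Of the 3 genes of SNARE recycling 1 fell and 2 did not pass, where 40.7% of all genes were called. Nsf, the ATPase that pulls SNARE complexes apart, fell by 0.26 ± 0.05 (limma adjusted p = 0.00256), from 11.51, 11.59 and 11.64 to 11.35, 11.33, 11.24 and 11.37, and its other probe set fell further, by 0.64 ± 0.07. Napa, its adaptor alpha-SNAP, read 11.88 on all 3 controls and 11.91, 11.92, 11.88 and 11.88 on the globin-labelled arrays (0.02 ± 0.04). The other Napa probe set, which is dimmer, fell by 0.46 ± 0.05 (limma adjusted p = 9.15e-05), so the 2 probe sets disagree. Napb, the neuronal beta-SNAP, did not pass on its brightest probe set (-0.09 ± 0.04), while 2 of the 4 others fell, by 0.20 and 0.17. Snap91, which encodes the clathrin adaptor AP180 that retrieves vesicle membrane, fell by 0.22 ± 0.04 (limma adjusted p = 0.00228).

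**Figure D3:**
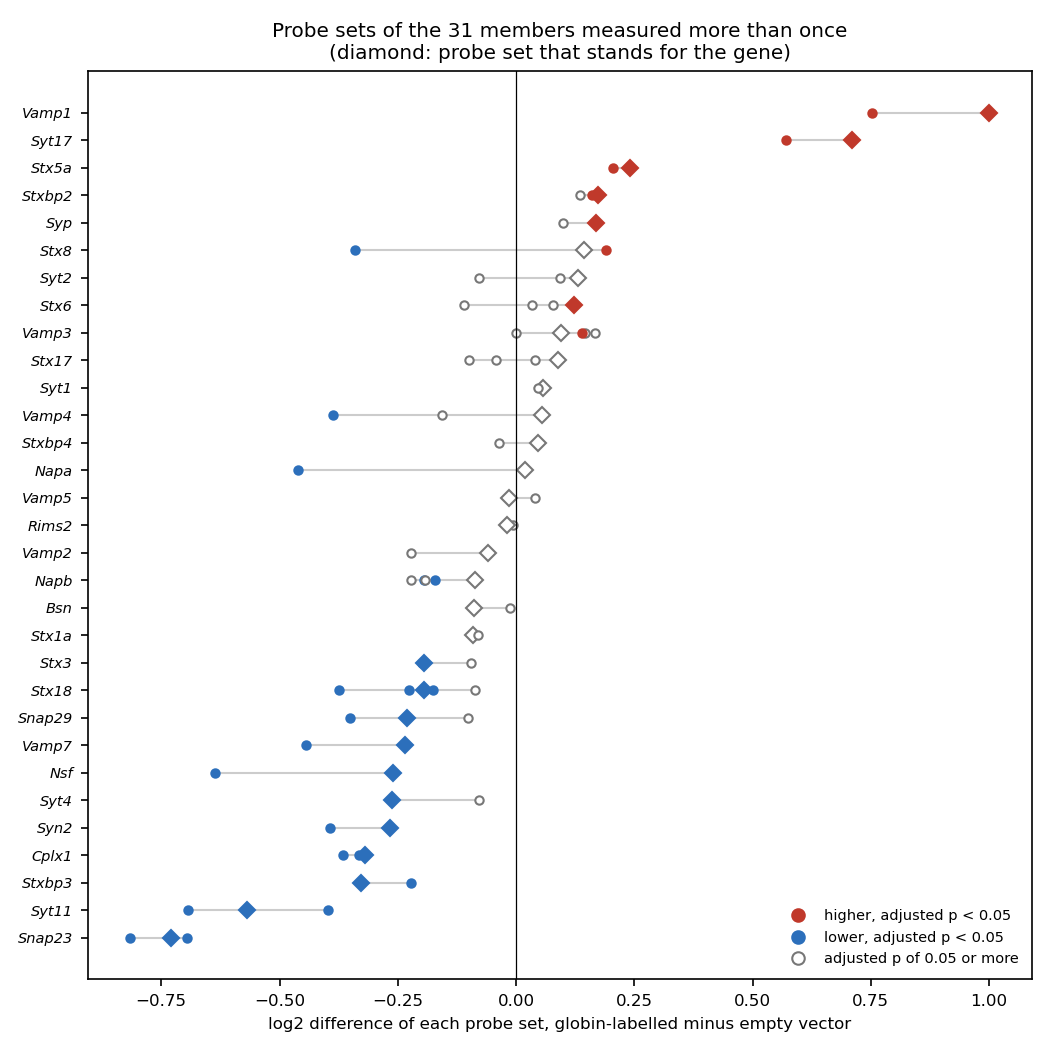
Log2 difference of every probe set of the 31 members that have more than 1, with a diamond for the probe set that stands for the gene and circles for the others. All probe sets of Vamp1, Syt17, Snap23, Syt11 and Cplx1 pass in 1 direction, whereas those of Stx8 pass in both and Napa and Vamp4 pass on a dimmer probe set only.

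Probe sets of 1 gene read different stretches of its transcripts. Of the 31 members with more than 1 probe set, 10 had all of them called in 1 direction (Cplx1, Nsf, Snap23, Stx5a, Stxbp3, Syn2, Syt11, Syt17, Vamp1 and Vamp7), 9 had none called, 11 had a part called and Stx8 had calls in both directions. Counted by probe set, 52 of 111 were called (46.8%, against 39.5% of all 22626 probe sets), 18 higher and 34 lower (16.2% and 30.6%, against 18.3% and 21.2%), so the falls weigh more when each probe set counts once than when each gene does. Vamp4 is an example, at 0.06 ± 0.04 on its brightest probe set and a fall of 0.39 ± 0.06 on the next. Whether a gene counted as called depended on the probe set for the 11 genes with a part called (Napa, Napb, Snap29, Stx18, Stx3, Stx6, Stxbp2, Syp, Syt4, Vamp3 and Vamp4) and for Stx8. Taking the probe set of largest variance instead lost the calls of Stx6, Stxbp2 and Syp.

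**Figure D4:**
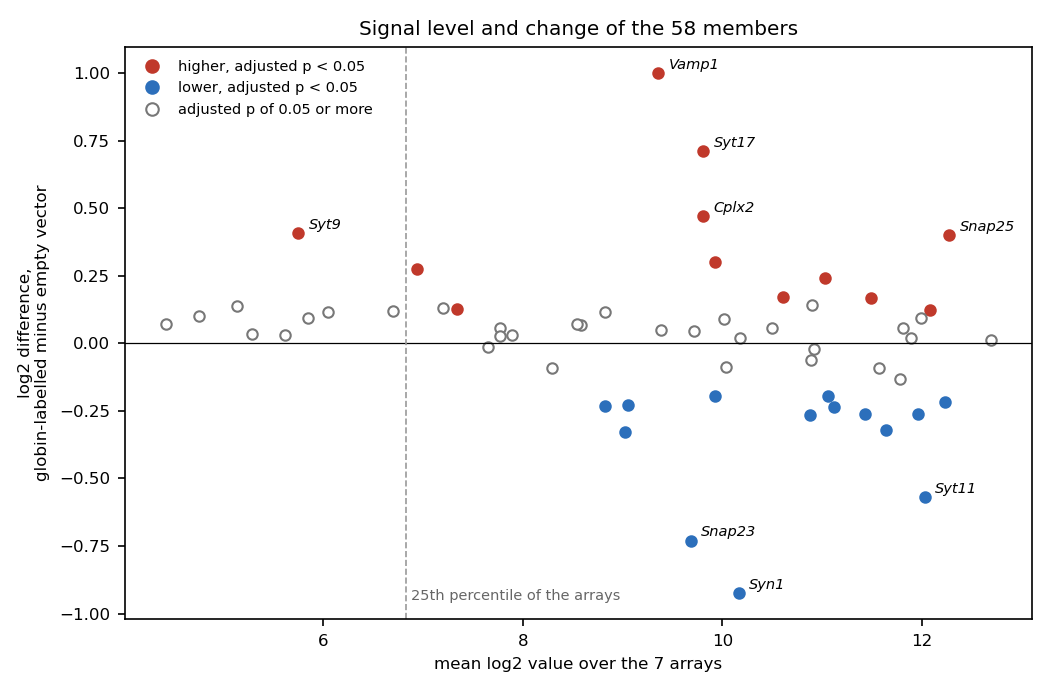
Mean log2 value over the 7 arrays (horizontal) and log2 difference (vertical) of the 58 members, with the arrays' mean 25th percentile, 6.83, as a dashed line. To its left lie 9 members, of which Syt9 alone passed, and the level axis ranks brightness of probe sets and not transcript number.

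On the probe sets that stand for them, the 32 members that did not pass lay between -0.13 and 0.14. The 95% confidence intervals there ran from -0.25 at the lowest to 0.30 at the highest bound. A change of more than 1.23-fold lay outside the interval of each of these probe sets. Dimmer probe sets of Napa, Vamp4 and Stx8 passed with larger falls, of 1.38-, 1.31- and 1.27-fold. Of the 32 members, Stx8, Stx17 and Vamp3 had groups that did not overlap on the probe set that stands for them. Among the 49 members above the arrays' 25th percentile 51% were called, where 49.4% of all such genes were.

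The wider vesicle cycle was followed in 73 further genes on a list made by function, of which 10 rose and 23 fell (13.7% and 31.5%, against 20.6% and 20.1% of all genes; median -0.05). The count of rises was 5 without empty vector array 2, 6 without globin-labelled array 3 and 6 without globin-labelled array 4, and that of falls stayed between 21 and 23 over all 7 fits with 1 array left out. Of 19 genes of clathrin-mediated endocytosis 9 fell and 1 rose. Amph, the membrane-bending protein amphiphysin, fell by 1.28 ± 0.06 (2.43-fold, limma adjusted p = 3.87e-07), from 8.76, 8.89 and 8.75 to 7.55, 7.47, 7.61 and 7.44. Dnm3, a dynamin that cuts vesicles free, fell by 0.68 ± 0.05, whereas its relatives Dnm1 and Dnm2 differed by -0.01 and 0.04 and did not pass. The other falls were those of Clta and Cltb, the clathrin light chains, Bin1, and the AP-2 adaptor genes Ap2a1, Ap2a2, Ap2b1 and Ap2s1, by 0.15 to 0.52. Sh3gl2, which encodes endophilin A1, rose by 0.36 ± 0.05.

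Among the exocyst genes, whose products tether vesicles to the plasma membrane, Exoc7 fell by 1.11 ± 0.06 (2.16-fold, limma adjusted p = 1.87e-06), Exoc1 fell by 0.49 ± 0.05 and Exoc6 rose by 0.37 ± 0.05, with 2 others not passing. Of 6 genes of the Rab3 and Rab27 proteins, which dock secretory vesicles, 2 rose, 2 fell and 2 did not pass. Rab3a, the Rab of synaptic vesicles, rose by 0.69 ± 0.06 (1.62-fold, limma adjusted p = 1.77e-05), from 9.14, 9.29 and 9.32 to 10.04, 9.93, 9.91 and 9.90, and Rab3d rose by 0.17 ± 0.05, while Rab27a and Rab3c fell by 0.59 ± 0.06 and 0.45 ± 0.06. Of 11 genes of the synaptophysin, synaptogyrin and SCAMP families 5 fell and 0 rose, where 20.1% of all genes fell and 20.6% rose. Syp, which belongs to these families and rose, is counted among the members instead. The largest fall of the 11 was 1.03 ± 0.06 for Syngr2, a synaptogyrin of cells outside the nervous system. Slc18a3, the vesicular acetylcholine transporter gene, rose by 0.41 ± 0.04, and Vti1b, an endosomal SNARE, rose by 0.25 ± 0.04. The 10 genes with the largest changes in this list, 5 in each direction, are all named here, and no test of the list as a whole was made.

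**Figure D5:**
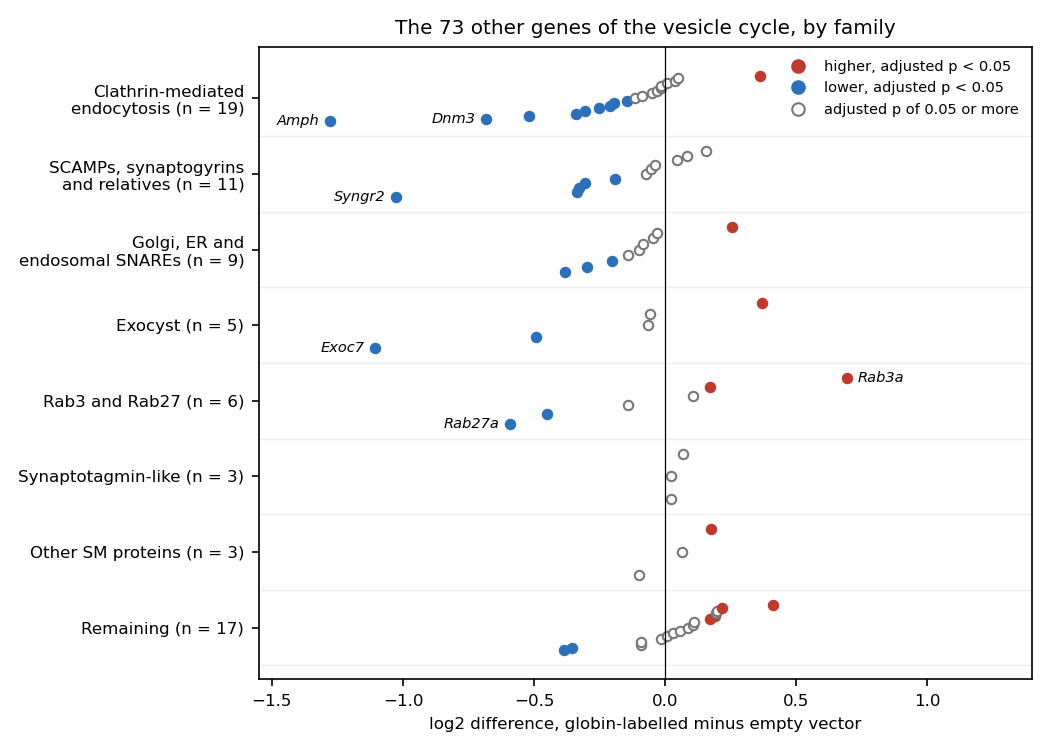
Log2 difference, globin-labelled minus empty vector, of the 73 other genes of the vesicle cycle by family, with 1 point per gene, spread vertically within a family for legibility. Filled points passed an adjusted p of 0.05, and among the 19 endocytosis genes 9 lie on the lower side and 1 on the higher.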

How the data were processed

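Total RNA was labelled in one cycle and hybridised, per the labels' protocols. The deposited values are log2 signals that the authors computed by RMA, as the submitters' processing notes name it, with no software version stated. RMA makes the distributions of the arrays alike, which hides a shift common to most transcripts. With no reads to count, precision rests on the number of arrays.

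The 64 array controls among 22690 probe sets were left out. The platform annotation gave 1 symbol for 20380 of the rest, several for 691 and none for 1555, and the symbols of all 58 members matched RefSeq's for GRCm38.p6. limma 3.58.1 in R 4.3.3 (lmFit, eBayes, group only, 5 residual and 9.10 total degrees of freedom) was fitted to all 22626 probe sets with Benjamini-Hochberg adjustment and called at 0.05, and tested on simulated data. Members and lists were chosen with earlier results of these data known. Named in full were the 10 largest rises and 10 largest falls among called members and 10 core genes of release where measured, the 5 largest of each direction in the wider list, and members whose probe sets disagree. Alternatives were other array scalings, moderation, filters and probe set rules, a fold minimum, a replicate block and leaving out arrays. The design's further control array, which failed its quality check, was not analysed here.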

Additional observations from a re-analysis of the deposited data

Results flagged for a closer look

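Within the 4 globin-labelled arrays, 2 of the 25 members described array by array had 1 array far from the rest, by a rule that picks out about 1 in 20 groups by chance. For Syt9, globin-labelled array 4 read 6.07 and the others 5.87 to 5.89 (gap over range 0.894), and the gene's difference ranged from 0.35 to 0.47 as single arrays were left out. For Unc13a, globin-labelled array 1 read 9.46 and the others 9.38 to 9.39 (gap over range 0.885).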

How the results depend on the processing

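Leaving out single arrays gave 23 to 25 changed members (10 to 12 higher, 12 to 14 lower), 26 to 32 of the other vesicle cycle genes (5 to 9 higher, 21 to 23 lower) and 7803 to 8271 probe sets. Requiring a fold of at least 1.5 left 4 members (2 higher, 2 lower) and 6 of the other genes (1 higher, 5 lower). The ordinary two-sample test left 5 of the other genes higher, and 3349 of all probe sets against 4131 in the main fit. With a replicate block, which also left out globin-labelled array 4, 18 members were called, 7 of them higher, and 5 of the other genes were higher. Over all probe sets that fit called 6337, of them 2940 higher, where the main fit called 8931, of them 4131 higher. Deviations of same-numbered arrays correlated at -0.34 to -0.24 and no array correlated best with its own number, so the numbers were not taken as pairs. Empty vector array 1 and globin-labelled array 4 stood at the same end of the second principal component. Leaving out both, a choice made after seeing the data, gave 21 called members, with Stx18, Stx3, Stxbp2, Syt7 and Vamp7 lost. Over all probe sets that fit called 7375. Taking the probe set of largest variance gave 9 higher and 17 lower members, a rule that itself favours changed probe sets. Among the members called in the main fit it turned the sign of Stx6 only. Averaging a gene's probe sets gave 11 higher and 18 lower. Under both other array scalings the counts of changed members were 26 and 27, and the median over all probe sets stayed between 0.00 and 0.02. The probe set of largest variance lost the calls of Stx6, Stxbp2 and Syp. It gained Napa, Stx8 and Vamp4, all as falls, where their brightest probe sets differed by 0.02, 0.14 and 0.06. The mean of a gene's probe sets lost Stx6 and gained Napa, Napb, Stx7 and Vamp4. Of the values of the 25 members described array by array, under the alternatives other than the probe set rules and the fold minimum, 332 kept their side of the threshold, 16 lost the call (Syt7, Vamp7, Stxbp2 and Syp) and 1 gained it (Unc13a). What scanner background would add to the dim members was not measured.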

Other observations

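For each gene the median difference of the 5 measured genes on either side along its chromosome was taken, in the order of RefSeq's GRCm38.p6 table. Over 12359 placed genes the 5th and 95th percentiles of these medians were -0.16 and 0.17. The neighbours of Snap23 had a median of -0.26, and 6 of the 10 fell. Those of Cplx1 had a median of -0.25, and 6 of the 10 fell. For Nsf the median was -0.17 with 5 of 10 lower, and for Syt7 it was 0.21 with 7 of 10 higher. These 4 of the 58 members (6.90%) lay outside those percentiles, as 10% of all genes do by construction, so their number is no result about the members. Around Syn1 and Vamp1, the members with the largest fall and the largest rise, the neighbours' median was 0.02 in both cases.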
